A study of Mus musculus with 2 samples.

Results

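The Notch receptors, their ligands and their feedback targets were examined in cells labelled bEnd3 and given a Smad4 or a control siRNA. The set holds 10 genes, namely the 4 receptors Notch1, Notch2, Notch3 and Notch4, the 4 ligands Dll1, Dll4, Jag1 and Jag2, and the feedback targets Nrarp and Hes1. They were chosen by name, with earlier results of these data known. Every probe set annotated to exactly 1 of them was kept, which gave 20 probe sets of 34945 with a single gene and 10 genes of 18193. bEnd3 is an endothelial line from microvessels of the mouse cerebral cortex (strain BALB/c per the labels), transformed by polyoma middle T antigen. Retrovirus made in PLAT-E packaging cells carried the Smad4 siRNA into one group and a control siRNA into the other, and both groups were selected with puromycin. RNA of 2 infections per group was pooled and hybridised to 1 Affymetrix array, so there are 2 arrays in all. The array of the control siRNA is called the control array. No difference here has a replicate check and no test between groups was made.

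Notch receptors are membrane proteins that are cut by a metalloprotease and then by γ-secretase when a Delta-like (Dll) or Jagged (Jag) ligand on a neighbouring cell pulls on them. The freed intracellular domain enters the nucleus, joins the DNA-binding protein RBPJ and a Mastermind co-activator, and switches on genes such as Hes1, Hey1 and Nrarp. In vessels, Notch1 and Notch4 are the receptors best known from endothelial cells and Notch3 is typical of smooth muscle cells and pericytes. Dll4 and Jag1 steer the choice between sprouting tip cells and stalk cells, and arterial identity.

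The signals are MAS5 values after quantile normalization, in arbitrary units. A floor at the median of each array, 22.8, stands in for detection calls. Probe sets that reached it on both arrays have a log2 ratio, Smad4-siRNA minus Control-siRNA. Those that reached it on a single array have a lower limit of the fold ("at least"), the brighter signal over the floor, and those that reached it on neither have no fold. The brightest probe set by mean log2 signal stands for its gene. Log2 ratios varied between probe sets of 1 gene with a pooled SD of 0.47 (4546 genes), used below as the technical error. It does not hold the spread between arrays or cultures.

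The labels were checked first. For Smad4 itself, the log2 ratios of the 3 probe sets were 0.25, 0.35 and 0.58, and -0.12, -0.07 and 0.21 without normalization. The targeted transcript was thus not lower by more than the technical error, and its sample is called the Smad4-siRNA-labelled array throughout. Xist was above the floor only on that array, and Uty, Kdm5d and Eif2s3y of the Y chromosome only on the control array. Of 22 endothelial markers, 21 reached the floor on the control array and 10 on the Smad4-siRNA-labelled array, where Pecam1, Tie1, Cldn5 and Emcn were below it. Vwf was below the floor on both. The summed signal of the list was 29314 and 1170. Of 14 fibroblast markers, 3 reached the floor on the control array and 12 on the other, with summed signals of 1036 and 34989. Of 12 pericyte and smooth muscle markers, 3 and 6 did so, with sums of 661 and 3217. Cnn1, Myh11, Rgs5, Kcnj8 and Abcc9 were below the floor on both. Below, "higher" and "lower" refer to the Smad4-siRNA-labelled array relative to the control array. The part of these markers in each result was not tested, and in pooled RNA fewer cells of a type cannot be told apart from less RNA per cell. The markers and the sex-linked genes differ together with the siRNA label. Effects of the label and of a difference between the cell cultures thus cannot be told apart in any result below.

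Among the 10 Notch genes, 6 were lower by 2-fold or more, 2 higher by as much, and 2 (Jag2 and Hes1) lay between. Over all 11581 genes with a fold or a bound, 15.8% were at least 2-fold lower and 16.0% at least 2-fold higher. Their median was -1.64 on the log2 scale, beside -0.11 over those genes. Of the 6 Notch genes measured on both arrays, 4 were lower and 1 was higher. The shares of all 9479 genes measured on both were 15.0% lower and 12.6% higher. Of all genes past 2-fold on both arrays, 45.6% were higher, 34.3% for the values as deposited and 56.2% after centring on the median. The median log2 ratio of all genes measured on both was -0.15, and -0.33 as deposited. By signal alone, the 4 probe sets of Notch2 and Notch3 were higher and those of the other Notch genes lower. This takes in 3 of the 20 probe sets that were below the floor on both arrays. Such signs were not counted over all probe sets, so they have no background share.

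**Figure D1:**
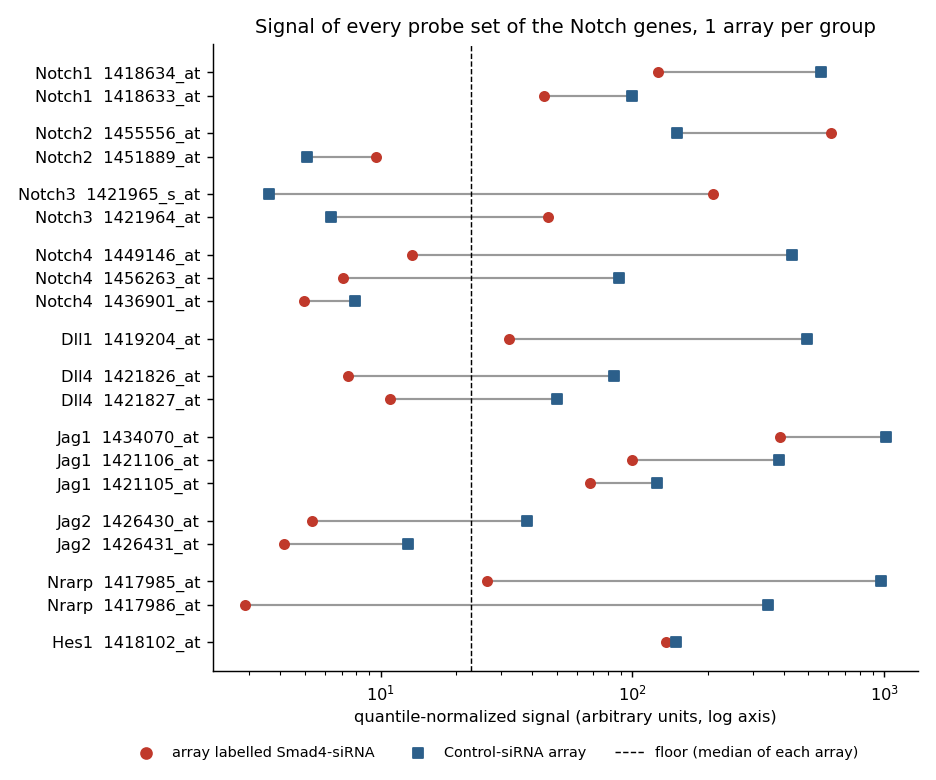
Quantile-normalized signal (log axis, arbitrary units) of each of the 20 probe sets on the Smad4-siRNA-labelled array (circles) and the control array (squares), with 1 array per group and the floor of 22.8 as a dashed line. Circles lie right of squares for Notch2 and Notch3 and left of them for the other genes, and they nearly meet for Hes1.

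The receptors went both ways. Notch1, the receptor needed for arterial fate and for stalk cells, had a signal of 126 on the Smad4-siRNA-labelled array and 562 on the control array. It was 4.45-fold lower (log2 ratio -2.15 ± 0.47, the pooled technical error). Its other probe set had signals of 44.7 and 99.9 and a log2 ratio of -1.16, so the SD between the probe sets of Notch1 itself was 0.70. Both lay above the floor on both arrays. Of the genes measured on both arrays, 2.17% had a ratio at least as low as Notch1.

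Notch4, a receptor known mainly from endothelium, stood at 430 on the control array and at 13.4, below the floor, on the other, and so was at least 18.9-fold lower. Its second probe set showed the same pattern, with 88.4 against 7.08 and a bound of 3.88-fold. The third was below the floor on both arrays, at 7.94 and 4.97, and gives no fold. Notch4 was thus at or above the floor only on the control array.

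Notch2, a receptor of many cell types, was higher. Its brighter probe set had a signal of 617 on the Smad4-siRNA-labelled array and of 151 on the control array, a log2 ratio of 2.03 ± 0.47 or 4.09-fold. The dim one, at 9.58 and 5.08, stayed below the floor on both. The ratio of Notch2 thus rests on 1 probe set. Ratios at least as high were found for 3.91% of the genes measured on both arrays.

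Notch3, the receptor of smooth muscle cells and pericytes, was below the floor on the control array in both probe sets, at 3.61 and 6.33. On the Smad4-siRNA-labelled array they had signals of 209 and 46.1, giving bounds of at least 9.20-fold and 2.02-fold higher. The brighter of them carries the suffix for sequence shared between transcripts, and the dimmer does not. Raising the floor to the 75th percentile left Notch3 a log2 bound of 0.72, under 2-fold. Of the pericyte and smooth muscle markers, the PDGF receptor gene Pdgfrb had signals of 968 and 1.03 on the same arrays and the actin gene Acta2 of 1634 and 33.5. The list was not uniform, with 5 of 12 genes higher, 1 lower, 1 between and 5 below the floor on both. Of the 7 with a fold or bound, 71.4% were higher and 14.3% lower, beside 16.0% and 15.8% of all genes. Mcam, an adhesion molecule that endothelial cells also make, was 15.5-fold lower (signals of 35.5 and 551), and Des, which encodes desmin, reached the floor only on the control array (13.7 and 36.2).

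A constant scaling factor between the arrays cancels in the difference between the log2 ratios of a pair of genes. The agreement of such differences between scalings is thus no check of the contrast within the receptor family. The log2 ratio of Notch2 exceeded that of Notch1 by 4.18 (error 0.67 from the spread between probe sets), and by 4.15 for the values as deposited. Between Notch3 and Notch4 the bounds differed by 7.44, a lower limit that moves with the floor. With the floor at the 75th percentile, the log2 bounds were 0.72 for Notch3 and -1.76 for Notch4. The receptors seen on the control array were Notch1, Notch2 and Notch4, and those on the Smad4-siRNA-labelled array were Notch1, Notch2 and Notch3.

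All 4 ligands had lower signals, a count of signs without a background share. Of them, 3 were at least 2-fold lower, beside 15.8% of all genes with a fold or bound. Dll1, a Delta-like ligand that also acts in arteries, had a signal of 491 on the control array and of 32.2 on the other. It was 15.2-fold lower by its only probe set (log2 ratio -3.93 ± 0.47). Of the 9479 genes measured on both arrays, 26, Dll1 included, had a ratio at least this low. Genes below the floor on the Smad4-siRNA-labelled array have bounds and are outside this rank. On the Smad4-siRNA-labelled array Dll1 was just above the floor.

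Dll4, the ligand of tip cells and arteries, had signals of 84.3 and 50.4 on the control array in its probe sets. On the Smad4-siRNA-labelled array they were 7.44 and 10.9, below the floor, so Dll4 was at least 3.70-fold and 2.21-fold lower. Both probe sets were dim even on the control array. The size of the difference beyond these bounds cannot be read from these arrays.

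Jag1, the Jagged ligand of endothelial and smooth muscle cells, was the ligand with clear signal on both arrays. Its probe sets gave 1019 against 387 and 126 against 67.9 (Control-siRNA first), with log2 ratios of -1.40 and -0.89. The third, at 380 on the control array, had a log2 ratio of -1.93. All had the same sign, and their SD was 0.52. Its brightest probe set was 2.63-fold lower, and 7.43% of the genes measured on both arrays had a ratio at least as low.

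Jag2, a related ligand, was dim. One probe set had a signal of 38.2 on the control array and of 5.34 on the Smad4-siRNA-labelled array, a bound of at least 1.68-fold lower. The other, at 12.8 and 4.15, was below the floor on both. Jag2 therefore counts as lying between, although the difference may be larger than 2-fold. Lowering the floor to the 25th percentile put Jag2 past 2-fold, at a log2 value of -2.77. The log2 ratio of Dll1 minus that of Jag1 was -2.53 (error 0.67), and -2.21 as deposited.

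The feedback targets parted. Nrarp encodes a small ankyrin repeat protein that Notch induces and that binds the intracellular domain with RBPJ and limits its activity. Its signals were 973 and 345 on the control array and 26.5 and 2.89 on the Smad4-siRNA-labelled array. The brighter probe set was 36.7-fold lower (log2 ratio -5.20 ± 0.47), and the other, below the floor on the Smad4-siRNA-labelled array, at least 15.2-fold lower. Counting Nrarp, 7 of the 9479 genes measured on both arrays had a ratio this low. That rank leaves out the 1009 genes at or above the floor only on the control array. The log2 bounds of some of them, such as Pecam1 (-6.37) and Emcn (-7.08), were lower still. With 26.5, Nrarp lay close to the floor of 22.8 on that array.

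Hes1, a basic helix-loop-helix repressor that Notch induces in many tissues and that other signals induce too, had signals of 135 and 149 by its only probe set. Its log2 ratio of -0.14 ± 0.47 was smaller than the technical error. It was -0.28 as deposited and 0.01 after centring, so its sign depended on the scaling. At 50.4% of genes with a ratio at least as low, it sat in the middle of all genes measured on both arrays. The log2 ratio of Nrarp minus that of Hes1 was -5.06 (error 0.67), and -5.01 as deposited.

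**Figure D2:**
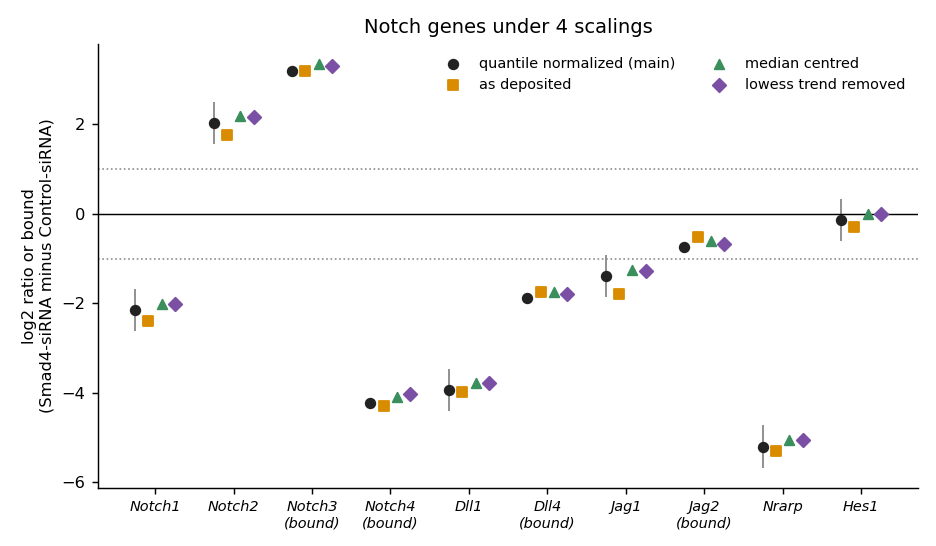
Log2 ratio or bound of each Notch gene under 4 scalings, with the pooled SD between probe sets (0.47) as the error bar of the quantile-normalized value for genes measured on both arrays, and dotted lines at 2-fold. The direction of every gene except Hes1 was the same under the 4 scalings.

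Promoter letters are shown for the receptors that differed most in opposite directions and for 2 genes that were lower, Nrarp and the glycosyltransferase gene Lfng, the latter picked after the search because its window holds both motifs. They were taken from RefSeq on GRCm38.p6 by gene symbol, matched for 9 of the 10 Notch genes, all but Hes1 (10 windows, as Dll1 has 2). Each is the 250 bases before the start site, 5′ to 3′ on the gene's strand. Capitals mark TGGGAA, the core bound by RBPJ, on either strand (TTCCCA on the other), and the E-box CACGTG, a sequence bound by basic helix-loop-helix factors. The windows are chr2:25180508-25180757 (plus strand) for Nrarp, chr5:140607091-140607340 (plus) for Lfng, chr17:32166891-32167140 (minus) for Notch3 and chr17:34564045-34564294 (plus) for Notch4.
Nrarp: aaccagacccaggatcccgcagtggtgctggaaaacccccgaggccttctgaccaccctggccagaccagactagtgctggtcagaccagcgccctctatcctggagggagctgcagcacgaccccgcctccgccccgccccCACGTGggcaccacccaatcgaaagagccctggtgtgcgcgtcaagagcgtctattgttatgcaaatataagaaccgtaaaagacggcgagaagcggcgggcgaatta
Lfng: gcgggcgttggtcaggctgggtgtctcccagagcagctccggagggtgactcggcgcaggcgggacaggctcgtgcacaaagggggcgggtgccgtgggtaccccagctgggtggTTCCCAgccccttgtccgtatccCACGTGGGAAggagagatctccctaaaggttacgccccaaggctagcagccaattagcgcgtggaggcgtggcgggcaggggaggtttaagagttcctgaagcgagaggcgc
Notch3: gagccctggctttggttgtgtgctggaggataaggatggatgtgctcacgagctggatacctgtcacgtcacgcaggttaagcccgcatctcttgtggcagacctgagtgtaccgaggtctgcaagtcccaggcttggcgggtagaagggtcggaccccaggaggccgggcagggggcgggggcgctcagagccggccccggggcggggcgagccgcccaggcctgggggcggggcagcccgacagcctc
Notch4: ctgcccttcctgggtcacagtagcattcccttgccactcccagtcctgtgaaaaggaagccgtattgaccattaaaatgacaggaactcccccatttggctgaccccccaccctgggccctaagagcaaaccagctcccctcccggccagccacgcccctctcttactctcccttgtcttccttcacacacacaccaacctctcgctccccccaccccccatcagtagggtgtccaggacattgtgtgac

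The letters TGGGAA were in 0 of the 10 windows of the Notch genes, and in 21.6% of all 32851 windows of this length. The E-box was in 1 of the 10, that of Nrarp, and in 6.02% of all windows. It begins 108 bases before the start site of Nrarp. A longer form of the RBPJ core, GTGGGAA, was also searched, and was in 0 of the 10 and in 5.42% of all windows. The N-box CACNAG on either strand, to which HES proteins bind, was in 5 of the 10 and in 36.7% of all. Those 5 were the windows of Nrarp, Notch1, Notch2, Notch3 and Dll4. Lfng had TGGGAA at 2 places, and 1 of them, part of GTGGGAA, overlaps its E-box. The N-box share holds receptors that were higher and receptors that were lower. A match is a run of letters and not a site shown to be bound, and sequence outside the windows was not searched.

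Neighbouring genes on the chromosome were set beside each Notch gene, using the order of genes in the RefSeq table. For each, the 5 nearest genes on either side with a fold or bound were taken. The medians of these 10 neighbours ran from -0.52 to 0.12 over the Notch genes, while the Notch genes themselves ran from -5.20 to 3.20. Of all genes with a fold or bound, 15.8% were at least 2-fold lower and 16.0% at least 2-fold higher. Around Nrarp 1 of 10 neighbours was at least 2-fold lower, and the lowest, the mitochondrial ribosomal gene Mrpl41, had a log2 ratio of -1.08. Around Dll1 none of the 10 was lower (lowest -0.53), and Thbs2 and Smoc2, which encode matricellular proteins, were at least 15.4-fold and 10.8-fold higher. Next to Notch1 lies Egfl7, an endothelial secreted protein reported to bind Notch, which was 14.1-fold lower (signals of 247 and 3471), while 2 of 10 neighbours of Notch1 were lower in all.

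**Figure D3:**
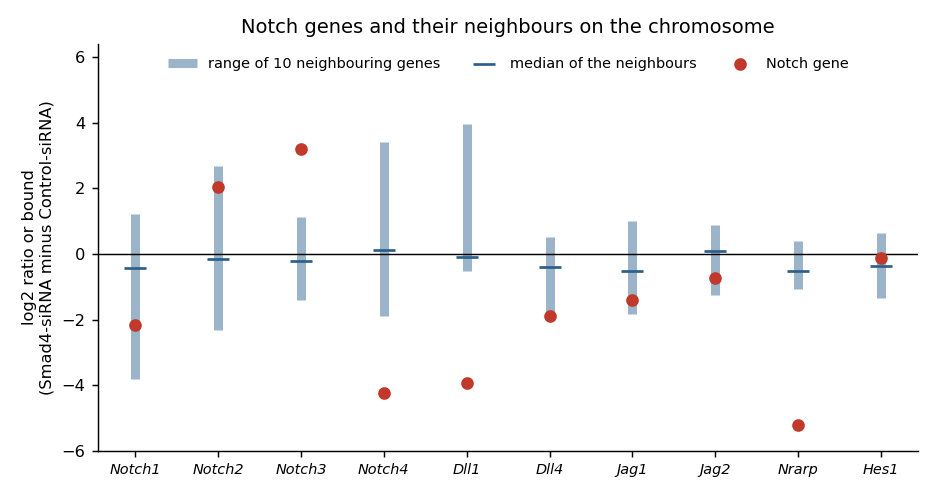
Log2 ratio or bound of each Notch gene (points) beside the range (bars) and median (ticks) of its 10 nearest genes with a fold or bound. Notch3 lies above, and Notch4, Dll1 and Nrarp lie below, the whole range of their neighbours.

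Beyond the 10 genes, 81 genes of the wider pathway were listed and 76 had a probe set of their own. Of the 64 with a fold or bound, 13 were lower, 13 higher and 38 between. These shares, 20.3% each, stand beside 15.8% and 16.0% of all genes, and the median was 0.12 beside -0.11. The other 12 were below the floor on both arrays. Of the pathway list, Kdr, Flt1 and Egfl7 are also on the endothelial marker list and Acta2 and Pdgfrb on that of pericytes.

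The enzymes that cut the receptors mostly lay within 2-fold. Of 8 genes, 0 were lower and 1 (12.5%) was higher, beside 15.8% and 16.0% of all genes. Adam17, a sheddase that can make the first cut, had signals of 647 and 247 and was 2.62-fold higher, with log2 ratios of 1.16 and 0.98 in its other probe sets. Adam10, the main sheddase of Notch, had signals of 957 and 944 (log2 ratio 0.02, or -0.40 as deposited). The γ-secretase genes Psenen and Aph1b had log2 ratios of -0.68 and -0.75. Psenen passed 2-fold in the values as deposited, with -1.07.

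Among the sugar-adding enzymes, the Fringe genes parted. Fringe proteins extend a fucose on the receptors and change which ligands they answer. Mfng was 383 on the control array and 3.93, below the floor, on the other, and so at least 16.8-fold lower. Lfng was 3.53-fold lower (signals of 25.5 and 90.0), close to the floor. Rfng had signals of 174 and 161 and a log2 ratio of 0.11 (-0.08 as deposited), with -0.38 in its other probe set. Poglut1 and Pofut1, which add the first sugars, had log2 ratios of 0.25 and 0.11, and the dimmer probe sets of Pofut1 had -0.05 and -0.72. Each of the lower Fringe genes rests on 1 probe set above the floor.

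Of the ubiquitin ligases that drive ligand uptake, Mib1, the main one for Notch ligands, had a log2 ratio of -0.03 (-0.33 as deposited) by its brightest probe set. A dimmer probe set of Mib1, at 21.7 and 52.0, was at least 2.28-fold lower. Neurl2 was 3.62-fold lower and Neurl1b at least 2.36-fold lower, while Mib2 had a log2 ratio of 0.75. Of the 10 genes for receptor trafficking and turnover, 1 was lower and 1 higher (10% each), beside 15.8% and 16.0% of all genes. Dtx2 and Dtx4, of the Deltex family, had ratios of opposite sign, with log2 ratios of -1.22 and 1.05. Aak1, a kinase of endocytosis, had a log2 ratio of 0.91, and of 1.06 after centring. Dtx2 had a bound under 2-fold (-0.51) with the floor at the 75th percentile, and Dtx4 a value of 0.96 with a pseudocount. Numb, an inhibitor of Notch, and Fbxw7, which marks the intracellular domain for decay, had log2 ratios of -0.31 and -0.14.

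In the nuclear complex, Rbpj was 2.64-fold higher. Its 3 probe sets had signals of 1702, 1033 and 539 on the Smad4-siRNA-labelled array and of 645, 504 and 205 on the control array. The log2 ratios were 1.40, 1.04 and 1.40 (1.04, 0.66 and 1.10 as deposited), so all were higher. The acetyltransferase gene Kat2b was 2.50-fold higher, but had a log2 bound of 0.66 when suffixed probe sets were left out. Kdm5a, a histone demethylase of the repressor complex, was 2.04-fold higher, with a log2 ratio of 0.70 as deposited, which is within 2-fold. Maml1, the co-activator, had a log2 ratio of 0.41 (0.07 as deposited), and of -0.06 by its dimmer probe set. Of the 12 genes with a fold, 0 were lower and 3 (25%) were higher, beside 15.8% and 16.0% of all genes.

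Other HES and HEY genes were mostly too dim to read. Hes2, Hes3, Hes5, Hes7 and Hey2 were below the floor on both arrays. Hey1, a direct Notch target of endothelium, had a signal of 48.7 on the control array and of 8.35 on the other. It was at least 2.14-fold lower, a bound that was under 2-fold as deposited (log2 value -0.89) and after centring (-0.95). Heyl had a bound of 1.11-fold lower by 1 probe set, at 25.2 on the control array, close to the floor. As deposited and after centring, its log2 bound was 0. The other probe sets of Heyl were below the floor on both arrays, with the higher signal on the Smad4-siRNA-labelled array. Hes6, a Notch antagonist, had a log2 ratio of 0.21.

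Vessel genes tied to Notch as targets, repressed genes or partners also went both ways. Of the 15 with a fold or bound, 6 (40%) were lower, 5 (33.3%) higher and 4 between, beside 15.8% and 16.0% of all genes. The VEGF receptor genes Kdr and Flt4 were 26.1-fold and at least 18.1-fold lower. The brightest probe set of Flt1 was 2.33-fold lower, but its 4 probe sets had both signs. The endothelial factors Sox17 and Sox18 were at least 12.7-fold and 23.2-fold lower, and the venous receptor gene Ephb4 was 3.72-fold lower. Foxc1 and Foxc2, forkhead factors that can induce Dll4, were 26.9-fold and 6.23-fold higher, the netrin receptor gene Unc5b 2.78-fold higher, Acta2 48.8-fold and Pdgfrb at least 42.5-fold higher. Efnb2, the arterial ephrin that Notch induces, had signals of 1078 and 566 and log2 ratios of 0.61 to 0.93 in 4 probe sets. It lay just within 2-fold, and just past it after centring (1.08).

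The non-canonical ligands and modulators followed no single direction. Dlk1, a Delta-like protein without the receptor-activating domain, was at least 7.22-fold higher by 1 of 2 probe sets, with signals of 164 and 5.43. With the higher floor its log2 bound was 0.37. The matrix protein genes Mfap2 and Thbs2 were at least 4.22-fold and 15.4-fold higher, and Egfl7 was lower as given above. Dll3 was below the floor on both arrays. On the same arrays, 10 of the 12 fibroblast markers with a fold or bound (83.3%) were at least 2-fold higher, beside 16.0% of all genes. Of the 21 endothelial markers with a fold or bound, 20 (95.2%) were lower by as much, beside 15.8% of all genes.

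**Figure D4:**
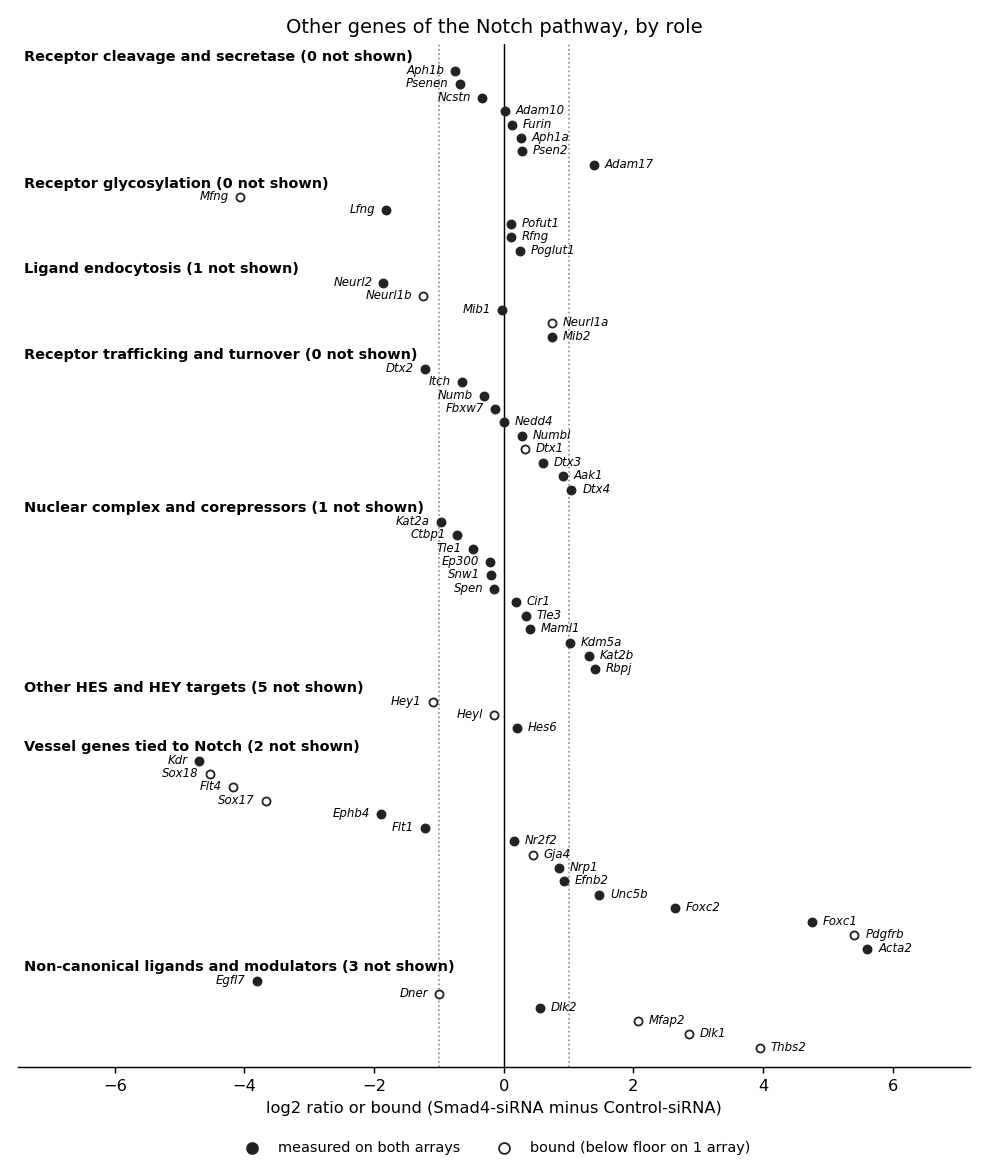
Log2 ratio or bound of the other genes of the pathway by role, filled for genes measured on both arrays and open for bounds, with dotted lines at 2-fold and genes below the floor on both arrays not shown. Mfng, Kdr, Sox18, Flt4, Egfl7 and Sox17 lie farthest to the left, and Acta2, Pdgfrb, Foxc1 and Thbs2 farthest to the right.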

How the data were processed

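RNA of cells titled bEnd3 was measured on 2 Affymetrix arrays, 1 per group, and groups were taken from the sample titles. The authors deposited 1 linear signal intensity per probe set, with MAS5 as the software in the submitters' processing notes. Its version and scaling target, and present or absent calls, were not used here. Of 45101 probe sets, 64 controls were left out. Log2 signals were quantile normalized, since the 2% trimmed means of the deposited values differed (115 and 138). Names were read from the platform annotation (34945 probe sets with 1 gene, 932 with several and 9160 unnamed here), updated by Entrez identifier to RefSeq symbols.

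The Notch genes, the wider lists and the markers were chosen with earlier results of these data known. All 10 Notch genes are named with every probe set, and in each other list the genes at least 2-fold different or, with fewer than 3, the farthest from 0 up to 3. Others named (Adam10, Rfng, Pofut1, Mib1, Numb, Fbxw7, Maml1, Efnb2, genes below the floor, markers and neighbours) were chosen after their values were seen. With 1 array per group, folds and counts describe these arrays and no p-value was computed. The number of arrays limits the precision. The scripts were tested on simulated arrays in which only genes well above the floor were changed, so the recovery of bounds was not tested. Alternatives were the values as deposited, median centring, removal of a lowess trend (fraction 0.3), floors at the 25th or 75th percentile, a pseudocount at the 25th percentile, the median over probe sets, and leaving out suffixed probe sets. Scripts ran in Python 3.11.15 with pandas 2.3.3 and statsmodels 0.14.6.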

Additional observations from a re-analysis of the deposited data

How the results depend on the processing

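The count of 6 lower Notch genes was 5 to 7 over the 8 alternatives. That of 2 higher ones was 2 in 7 of them, and 1 when the floor was raised to the 75th percentile, where Notch3 had a log2 bound of 0.72 and Dll4 and Jag2 gave no fold. Jag2 was at least 2-fold lower under the 25th percentile floor and under the pseudocount. No Notch gene called lower or higher changed sign, and scaling alone (as deposited, centred, lowess) changed no call among the 10. Nrarp ran from -5.29 to -2.94 on the log2 scale, Dll1 from -3.99 to -1.95, Notch4 from -5.01 to -1.76, Notch3 from 0.72 to 5.22, Notch1 from -2.38 to -1.66, Notch2 from 1.76 to 2.18 and Jag1 from -1.78 to -1.25. The values nearest 0 of Nrarp, Dll1, Notch4 and Notch3 came with the floor at the 75th percentile, where they are bounds against a higher floor.

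For the wider pathway, 13 lower genes became 7 under the 75th percentile floor and were 9 to 16 otherwise, and the 13 higher genes were 9 to 16. Among the genes named there, Hey1 and Kdm5a came under 2-fold as deposited, Hey1 after centring, and Kat2b, Kdm5a and Flt1 with the median over probe sets. Dlk1 (0.37), Dtx2 (-0.51), Flt1 (-0.35) and Unc5b (0.87) did so under the 75th percentile floor, Dtx4 (0.96) with the pseudocount, and Kat2b (0.66) and Kdm5a (0.90) without suffixed probe sets. Lfng, Neurl1b, Neurl2, Hey1, Mfap2 and Dtx4 lost their fold or bound altogether under the 75th percentile floor. Acta2, Dlk1, Dtx2, Egfl7, Ephb4 and Sox17 had none once suffixed probe sets were left out. Psenen passed 2-fold as deposited, Heyl under the 25th percentile floor, and Aak1 and Efnb2 after centring and with the lowess trend removed. No paired analysis was possible because each group had 1 array. The depth of an array is its signal over background, so dim genes (Dll4, Jag2, Hey1 and most HES genes) have bounds or no fold. The difference between the arrays in endothelial and fibroblast markers, and between their sex-linked genes, runs together with the siRNA label, so label and cell culture cannot be told apart.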

Other observations

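Notch4 lies in the major histocompatibility region, and its 10 nearest genes with a fold or bound were mixed, with a median of 0.12. Of these, 4 were higher by 2-fold or more, 2 lower and 4 between, beside 16.0% higher and 15.8% lower of all genes. The antigen processing genes Psmb8, Tap1, Tap2 and Psmb9, which encode immunoproteasome subunits and the peptide transporter, were the 4 higher ones, with log2 ratios of 3.41, 2.07, 1.59 and 1.34 (3.32, 2.09, 1.51 and 1.49 as deposited). On the other side of Notch4, Gpsm3 and Agpat1 were lower, with log2 ratios of -1.89 and -1.33, and Pbx2 and Rnf5 had values of -0.21 and 0.35. Egfl8 was at least 1.97-fold lower, and H2-Eb2 had signals of 17.5 and 24.8, close to the floor. These genes were chosen as neighbours and named after their values were seen.

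Near Notch2, the mesenchymal transcription factor gene Tbx15 was at least 6.44-fold higher (signals of 147 and 7.40), the kinase subunit gene Prkab2 had a log2 ratio of 2.56, and Zfp697 was lower with a log2 ratio of -2.33. Near Dll4, the stress gene Chac1 had a log2 ratio of -1.71.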
